A study of Homo sapiens with 11 samples.

Results

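The genes described here are 39 genes of the DNA damage checkpoints and of DNA repair, chosen by symbol from the 45965 genes of the deposited table. Each had 1 row there, and all 39 passed the filter on low counts, among 16324 genes tested. They comprise 13 checkpoint genes, 10 of homologous recombination, 3 of the Fanconi anaemia pathway, 5 of end joining, 3 of single-strand break repair, 2 of mismatch repair and 3 of nucleotide excision repair.

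The libraries are 3′ tag sequencing of mRNA from H1299, a human lung carcinoma line that lacks p53. Constructs for mutant p53, with the hotspot mutation R273H or R175H on the arginine (R72) or proline (P72) form of codon 72, had been put into the cells, which were then selected with 800 µg/ml neomycin for 14 days. There was 1 R273H R72 library, and there were 4 R273H P72, 3 R175H R72 and 3 R175H P72 libraries. All groups make a mutant p53, so the comparisons set mutants against each other, and no untransfected or wild-type p53 cells are among these libraries. The labels do not say what promoter drives p53, whether a line is 1 clone, or whether replicates were separate cultures, so the spread behind each p-value is that of libraries and may be technical only.

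The totals were 8346926 to 12829560 estimated counts per library. By their labels, batch b1 holds 4 libraries, of which 3 are R273H P72 (replicates 2, 3 and 4) and 1 is R175H R72 (replicate 1), and batch b2 holds the other 7, so R273H P72 and R175H P72 shared a batch through R273H P72 replicate 1 alone. The summed level of the line's markers KRT8, KRT18, VIM and CDH2 was 2177 to 3114 CPM (counts scaled to library size, by TMM), and those of lung lineage, leukocyte, fibroblast and endothelial lists stayed at or under 6.45 CPM, each summed over its whole list.

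As background, cells answer broken or unreplicated DNA with the sensor kinases ATM and ATR, which act through CHEK2 and CHEK1 to hold the cell cycle. Homologous recombination copies the lost sequence from the sister chromatid with the help of BRCA1, BRCA2 and proteins that form filaments on DNA, while end joining rejoins the ends directly through Ku and DNA-PK. The other pathways remove damaged or mispaired bases, crosslinks and nicks. Many of these genes are transcribed mainly in cycling cells under E2F and related factors, and p53 itself is a target of the checkpoint kinases.

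The promoters of members higher in R273H than in R175H on P72 are shown first, since E2F-like, CCAAT and CHR letters are usual in cycling genes. RefSeq windows (GRCh38.p14, 250 bases before to 50 after the start) were at hand for the members higher in R273H other than FANCI, 8 windows in all. The motifs searched, on both strands, were TTTNNCGC (E2F-like), CCAAT and TTTGAA (CHR), and capitals mark a match in either orientation. The windows with a match belong to XRCC2, MDC1 and RAD54L, the last of which has a second, overlapping window.
XRCC2 (chr7:152676092-152676391, minus strand): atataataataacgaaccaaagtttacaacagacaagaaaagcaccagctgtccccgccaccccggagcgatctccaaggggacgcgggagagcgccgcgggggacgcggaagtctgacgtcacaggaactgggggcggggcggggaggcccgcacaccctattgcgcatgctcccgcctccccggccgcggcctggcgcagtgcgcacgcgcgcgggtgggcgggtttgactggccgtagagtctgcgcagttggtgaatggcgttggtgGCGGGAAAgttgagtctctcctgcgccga
MDC1 (chr6:30717232-30717531, minus strand): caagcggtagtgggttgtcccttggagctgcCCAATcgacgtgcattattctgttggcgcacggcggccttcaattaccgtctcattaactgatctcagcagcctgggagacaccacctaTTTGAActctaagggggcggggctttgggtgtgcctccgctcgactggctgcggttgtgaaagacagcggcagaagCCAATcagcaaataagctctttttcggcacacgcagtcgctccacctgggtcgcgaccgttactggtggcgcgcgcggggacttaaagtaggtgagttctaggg
RAD54L (chr1:46247438-46247737, plus strand): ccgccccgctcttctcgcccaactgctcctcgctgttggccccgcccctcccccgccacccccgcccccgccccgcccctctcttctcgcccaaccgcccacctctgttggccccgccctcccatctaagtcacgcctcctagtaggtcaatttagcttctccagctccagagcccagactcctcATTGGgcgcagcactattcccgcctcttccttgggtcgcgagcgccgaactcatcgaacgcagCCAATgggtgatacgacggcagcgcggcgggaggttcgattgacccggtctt

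XRCC2 holds 1 E2F-like match, MDC1 holds 2 CCAAT matches and 1 CHR match, and RAD54L holds 2 CCAAT matches. The E2F-like letters were in 1 of the 8 windows of members higher in R273H, in 9 of the 53 windows at hand for members (17%) and in 6.89% of all 35116 windows. CCAAT was in 3 of the 8, in 56.6% of the members' windows and in 34.6% of all. CHR was in 1 of the 8, in 9.43% of the members' windows and in 15.2% of all. These shares are over windows and not over genes. FANCI, HUS1, NBN, PRKDC and XRCC5 had no window, while others such as LIG4 and MSH6 had several. The overlapping windows of PMS2 are each counted among the 9. A match is a run of letters and not a measured binding site.

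The first comparison set R273H cells against R175H cells on the P72 form. Genes of homologous recombination made up 4 of the 7 members that were higher in R273H: XRCC2, RAD54L, BRCA2 and RAD51C. The other 3 were the strand-break sensor PARP1, the crosslink repair gene FANCI and the checkpoint scaffold MDC1, and the nuclease gene ERCC1 was the 1 member that was lower. These 8 of 39 members (20.5%) passed the threshold (adjusted p under 0.05, edgeR quasi-likelihood test with Benjamini-Hochberg adjustment over all genes), beside 14.6% of all genes tested. The members' share lay near that background, with 7 higher and 1 lower, where 6.95% of all genes were higher and 7.6% lower. The median log2 fold change was 0.09 over the 39 members and 0.003 over all genes. Before adjustment, 11 of 39 had a p under 0.05, beside 27.8% of all genes. In bulk RNA a change in RNA per cell and one in the share of expressing cells cannot be told apart. Fold changes come from a fit with batch as a term over all 11 libraries, so they can differ from the ratio of the group means.

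**Figure D1:**
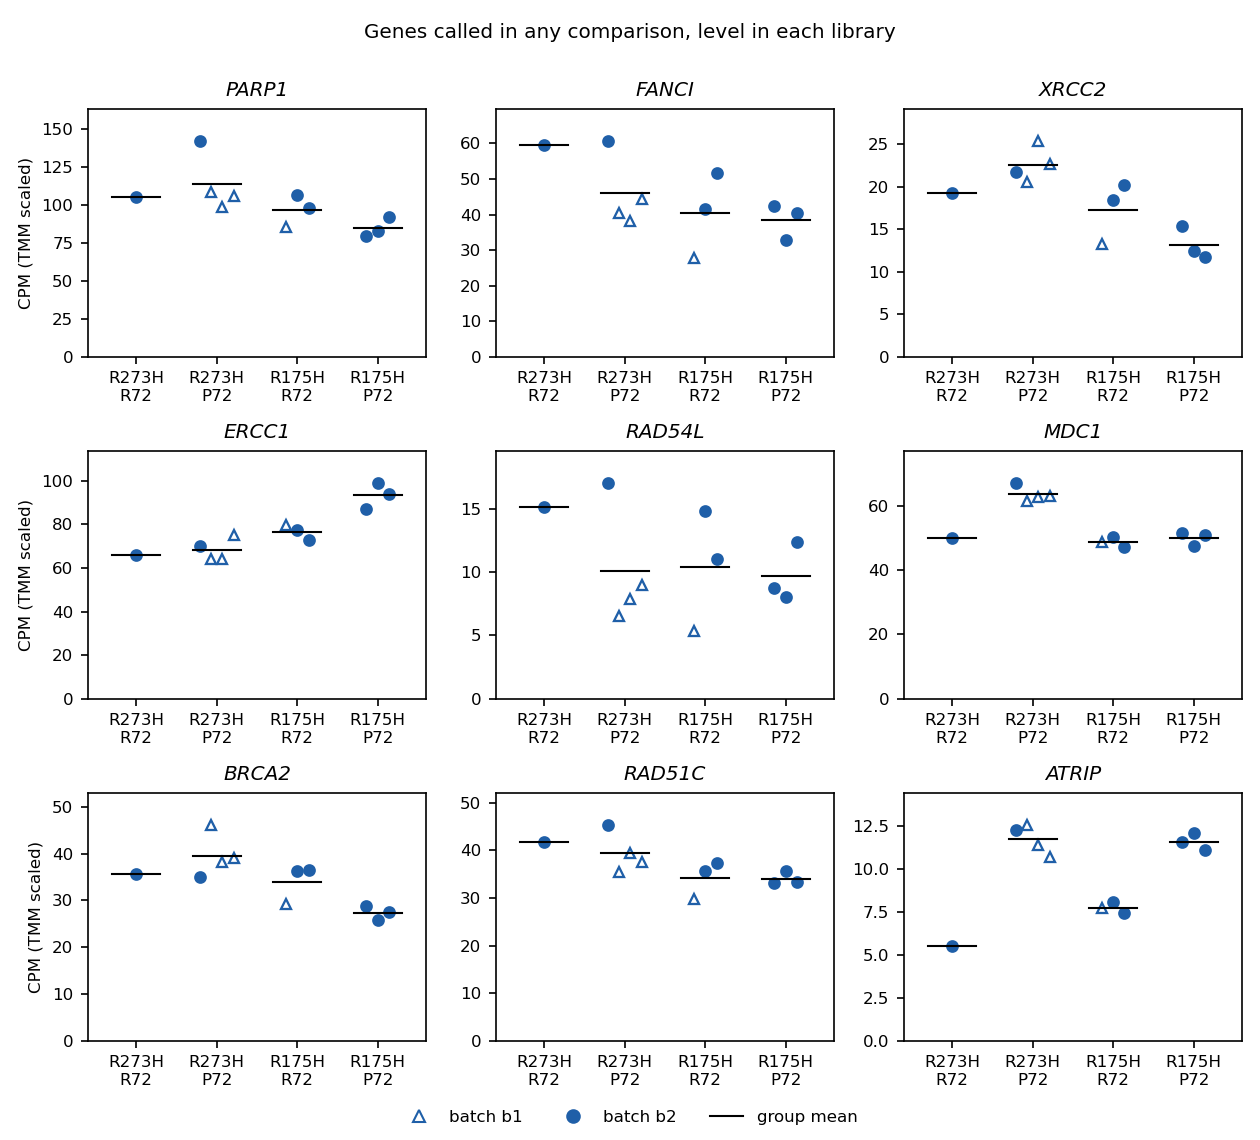
Level (CPM) of the 9 genes called in any comparison, 1 panel per gene and 1 point per library; triangles are batch b1, filled circles batch b2, and bars group means. For MDC1 the 4 R273H P72 libraries (61.6 to 67 CPM) lie above all others, for RAD54L the b1 libraries (5.34 to 8.98 CPM) lie below most b2 libraries, and for ATRIP the 4 R72 libraries (5.5 to 8.07 CPM) lie below the 7 P72 libraries.

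PARP1 (chromosome 1, 226360691 to 226408079, hg38), which senses strand breaks and builds poly(ADP-ribose) there, had 142, 109, 98.5 and 106 CPM in R273H P72 replicates 1 to 4. It had 79.4, 82.5 and 92 CPM in R175H P72 replicates 1, 2 and 4. All R273H P72 libraries lay above all R175H P72 libraries, and the highest was replicate 1, the one in b2. Its log2 fold change was 0.68 (SE 0.10, adjusted p = 0.000148). PARP1 was also lower in b1 than in b2 by the batch term (log2 -0.36, SE 0.09, adjusted p = 0.0101), as 1 of 4 members called by that term, beside 9.21% of all genes. There are 2 pseudogenes named after PARP1 that can share its reads.

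XRCC2 (chromosome 7, 152644779 to 152676165), a recombination protein whose promoter holds the E2F-like letters above, had 21.7, 20.5, 25.4 and 22.7 CPM in R273H P72 replicates 1 to 4. R175H P72 replicates 1, 2 and 4 had 15.4, 12.4 and 11.7 CPM. The groups did not overlap, and the single R273H P72 library of b2 was not apart from the 3 of b1. XRCC2 averaged 22.6 ± 2.07 CPM in R273H P72 and 13.2 ± 1.97 CPM in R175H P72 (SD, n = 4 and 3). Its log2 fold change of 0.91 (SE 0.18, adjusted p = 0.00146 by edgeR) was the highest of the 39.

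BRCA2 (chromosome 13, 32315474 to 32400266), which acts in homologous recombination on single-stranded DNA, had 34.9, 46.1, 38.2 and 39 CPM in R273H P72 replicates 1 to 4. It had 28.8, 25.9 and 27.5 CPM in R175H P72 replicates 1, 2 and 4. These groups did not overlap either, and the R273H P72 library of b2 was the lowest of its group. The log2 fold change was 0.53 (SE 0.14, adjusted p = 0.0135 by edgeR). MDC1 (chromosome 6, 30699807 to 30717889), which binds phosphorylated histone H2AX beside breaks and gathers checkpoint proteins, also kept the groups apart. It had 67, 61.6, 62.6 and 63 CPM in R273H P72 replicates 1 to 4, against 51.4, 47.5 and 50.8 CPM in R175H P72 replicates 1, 2 and 4. All 4 R273H P72 libraries stood above every library of the other 3 groups, which held 47.3 to 51.4 CPM. Its log2 fold change was 0.39 (SE 0.10, adjusted p = 0.00954 by edgeR).

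For 3 of the genes called higher, the libraries of the groups overlapped, and fits of all 11 libraries called these genes only with a batch term. RAD54L (chromosome 1, 46247688 to 46278473), a motor protein of homologous recombination, had 17, 6.57, 7.84 and 8.98 CPM in R273H P72 replicates 1 to 4. It had 8.77, 8.01 and 12.4 CPM in R175H P72 replicates 1, 2 and 4. Only R273H P72 replicate 1 lay above the R175H P72 libraries. By the batch term RAD54L was lower in b1 (log2 -1.18, SE 0.19, adjusted p = 0.000538), and R175H R72 replicate 1, also of b1, had 5.34 CPM against 14.8 and 11 CPM in replicates 2 and 4 of that group. The fitted hotspot log2 fold change was 0.84 (SE 0.21, adjusted p = 0.00884) with the batch term and 0.08 (SE 0.40, adjusted p = 0.918) without it.

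FANCI (chromosome 15, 89243949 to 89317261), the partner of FANCD2 in recognising DNA crosslinks, had 60.7, 40.4, 38.3 and 44.5 CPM in R273H P72 replicates 1 to 4. R175H P72 replicates 1, 2 and 4 had 42.4, 32.8 and 40.4 CPM. For FANCI, R273H P72 replicates 1 and 4 lay above all R175H P72 libraries, and replicates 2 and 3 lay within their range. Its log2 fold change was 0.71 (SE 0.13, adjusted p = 0.00097) with the batch term and 0.26 (SE 0.21, adjusted p = 0.447) without it, and its batch term was -0.64 (SE 0.11, adjusted p = 0.00123). RAD51C (chromosome 17, 58692573 to 58735611), another gene of homologous recombination, had 45.3, 35.4, 39.3 and 37.5 CPM in R273H P72 replicates 1 to 4. It had 33.1, 35.7 and 33.4 CPM in R175H P72 replicates 1, 2 and 4. R273H P72 replicate 2 fell within the range of R175H P72, and the other 3 lay above it. The log2 fold change was 0.42 (SE 0.11, adjusted p = 0.0136) with the batch term and 0.21 (SE 0.11, adjusted p = 0.209) without it.

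ERCC1 (chromosome 19, 45407333 to 45478828), the partner of ERCC4 in the nuclease that cuts on the 5′ side of bulky lesions, was lower in R273H. It had 69.9, 63.9, 64 and 75.2 CPM in R273H P72 replicates 1 to 4, against 87.1, 98.9 and 94.2 CPM in R175H P72 replicates 1, 2 and 4. The groups did not overlap, and the b1 and b2 libraries of R273H P72 were intermixed. The log2 fold change was -0.46 (SE 0.11, adjusted p = 0.00495 by edgeR). ERCC1 shares 1593 exonic bases with CD3EAP, which encodes a subunit of RNA polymerase I on the opposite strand and was higher in the same comparison (log2 0.46, SE 0.12, adjusted p = 0.0122). Use of strand in the counting is not stated, so reads of ERCC1 and CD3EAP could not be told apart with certainty. The same holds for RAD54L and FANCI among the called genes, which share 806 and 458 exonic bases with opposite-strand genes that had 3110 and 2092 counts over the 11 libraries, beside 1195 for RAD54L and 4855 for FANCI. Of the genes not called on P72, XRCC3, FANCA, LIG3, RAD9A, CHEK2, ERCC2, ATM, MSH6, TP53BP1, RAD1 and RAD17 also share exonic bases with an expressed gene of the opposite strand.

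**Figure D2:**
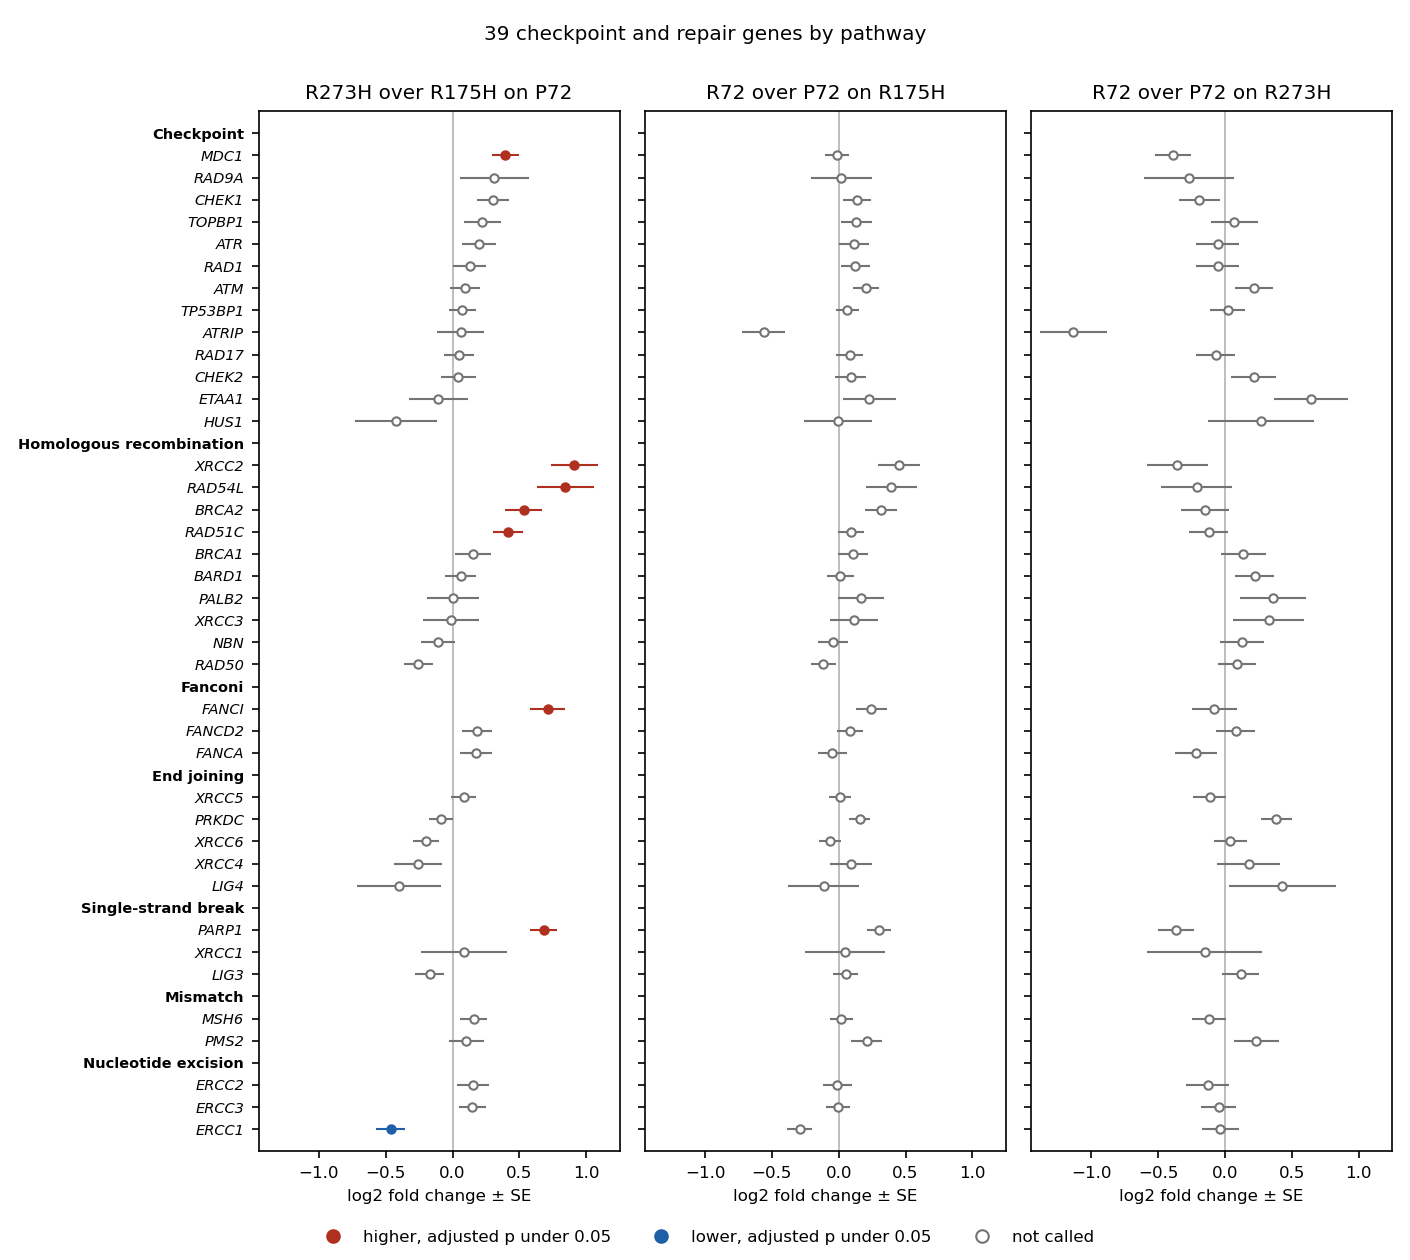
Log2 fold change of each of the 39 genes, with its SE as the bar, grouped by pathway, in 3 comparisons; filled points passed the adjusted p threshold of 0.05 (red higher, blue lower). In R273H over R175H on P72, 7 points are red and 1 is blue, and in both R72 over P72 comparisons none is filled.

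Among members that missed the threshold, the ATR effector kinase CHEK1 had 50.9, 54.6, 49.6 and 48.41 CPM in R273H P72 replicates 1 to 4 and 48.38, 44.3 and 42.9 CPM in R175H P72 replicates 1, 2 and 4 (log2 0.30, SE 0.12, adjusted p = 0.0981). All 4 R273H P72 values stood above the R175H P72 ones, by a narrow margin. RAD50, a subunit of the break-sensing complex with MRE11 and NBN, had 61.5, 72.3, 71.6 and 71.9 CPM in R273H P72 replicates 1 to 4 and 79.6, 81.4 and 77.3 CPM in R175H P72 replicates 1, 2 and 4 (log2 -0.26, SE 0.11, adjusted p = 0.129). For RAD50 the log2 fold change was -0.04 without R273H P72 replicate 1 and -0.31 without R175H R72 replicate 4, where it was called (adjusted p = 0.0391). XRCC6, the Ku70 subunit that binds broken ends, had 416, 538, 492 and 468 CPM in R273H P72 replicates 1 to 4, against 483, 457 and 457 CPM in R175H P72 replicates 1, 2 and 4. Its groups overlapped, its log2 fold change was -0.20 (SE 0.10, adjusted p = 0.175), and its batch term was called higher in b1 (log2 0.31, SE 0.08, adjusted p = 0.0165).

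By pathway, homologous recombination had 4 of 10 members called, all higher, with a median log2 fold change of 0.11, where 14.6% of all genes were called and 6.95% were higher. With so few members in a pathway, these counts are a description. The checkpoint list had 1 of 13 called (MDC1) with a median of 0.09, and the Fanconi list 1 of 3 (FANCI) with 0.18. Single-strand break repair had 1 of 3 called, PARP1, and nucleotide excision repair 1 of 3, ERCC1, whose partners in the list ERCC2 and ERCC3, the helicases of TFIIH, had log2 fold changes of 0.15 (SE 0.12 and 0.10) and were not called. End joining had 0 of 5 called by edgeR, DESeq2 or limma-voom, and a median of -0.20, and 1 of the 5 had an unadjusted p under 0.05. Mismatch repair had 0 of 2 called by these tools and 0 at an unadjusted p under 0.05, with log2 fold changes of 0.16 for MSH6 (SE 0.10), which recognises mispairs, and 0.10 for PMS2 (SE 0.13), which acts after a mispair is recognised. In counts of groups that did not overlap, 10 of 39 members were apart, 8 higher and 2 lower, beside 28.1% of all genes, a share near that background.

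Of 130 other tested genes of the DNA damage response, 25 were called (19.2%), 15 higher and 10 lower, beside 14.6% of all genes, 6.95% higher and 7.6% lower. The 4 with the smallest p were FEN1, the flap endonuclease of replication and base excision repair (log2 0.96, SE 0.11), CLSPN, the adaptor through which ATR reaches CHEK1 (0.80, SE 0.12), MPG, a glycosylase for alkylated bases (-0.77, SE 0.12), and SLX1A, a nuclease subunit with a near-identical copy that can share reads (-0.96, SE 0.16). In the other genes of homologous recombination, 5 of 27 were higher and 1 was lower, 22.2% called beside the same 14.6%. FEN1, MPG and SLX1A also share exonic bases with an expressed gene of the opposite strand.

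Genes of proliferation moved with the same comparison. Of 31 such genes 14 were higher and 1 lower in R273H, with a median log2 fold change of 0.31, so that 48.4% were called beside 14.6% of all genes. With the GC correction 9 of the 31 were called, with a median of 0.27. MKI67, a marker of cycling cells, rose (0.33, SE 0.10, adjusted p = 0.0235), with 256, 320, 301 and 294 CPM in R273H P72 replicates 1 to 4 and 204, 196 and 223 CPM in R175H P72 replicates 1, 2 and 4. PCNA, the replication clamp, rose by the batch-adjusted fit (0.75, SE 0.17, adjusted p = 0.00681), with 59.9, 45.5, 41.8 and 49.5 CPM in R273H P72 and 41.9, 31.7 and 47.4 CPM in R175H P72, where the groups overlapped. The proliferation list summed to 7037 to 8454 CPM in R273H P72 and to 5710 to 6207 CPM in R175H P72, without overlap. The part of proliferation in the values of the recombination genes was not tested.

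The hotspot comparison rested on a few libraries. R175H R72 replicate 1 is the only library of b1 outside R273H P72, and without it the fit has R273H P72 replicate 1 alone to set against R175H P72. In batch b2 alone R273H P72 is 1 library, assumed to vary like the other groups, and PARP1, XRCC2 and FANCI were called, 3 of 39 beside 5.38% of all genes, with log2 fold changes of 0.74, 0.72 and 0.65. The other 5 kept their sign there, with adjusted p-values of 0.0591 for MDC1, 0.061 for RAD54L, 0.0638 for ERCC1, 0.0898 for RAD51C and 0.176 for BRCA2. Without R175H R72 replicate 1, 6 of 39 were called, beside 7.46% of all genes. BRCA2 (0.35, adjusted p = 0.144) and RAD51C (0.41, adjusted p = 0.0544) were not, and BRCA2 was not called without R175H P72 replicate 2 either (0.49, adjusted p = 0.0508). Without R273H P72 replicate 1, PARP1 was 0.56, XRCC2 1.34, FANCI 0.83, BRCA2 0.90 and ERCC1 -0.55, all called, and CHEK1 was called too (0.57, adjusted p = 0.0478), which made 6 of 39 beside 7.72% of all genes. In that fit MDC1 (0.33), RAD51C (0.43) and RAD54L (0.97) were not called. There R273H P72 and R175H P72 share no batch. The batch term then rests on R175H R72 replicate 1 against the b2 libraries of its group, so these fold changes and calls depend on that 1 library.

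**Figure D3:**
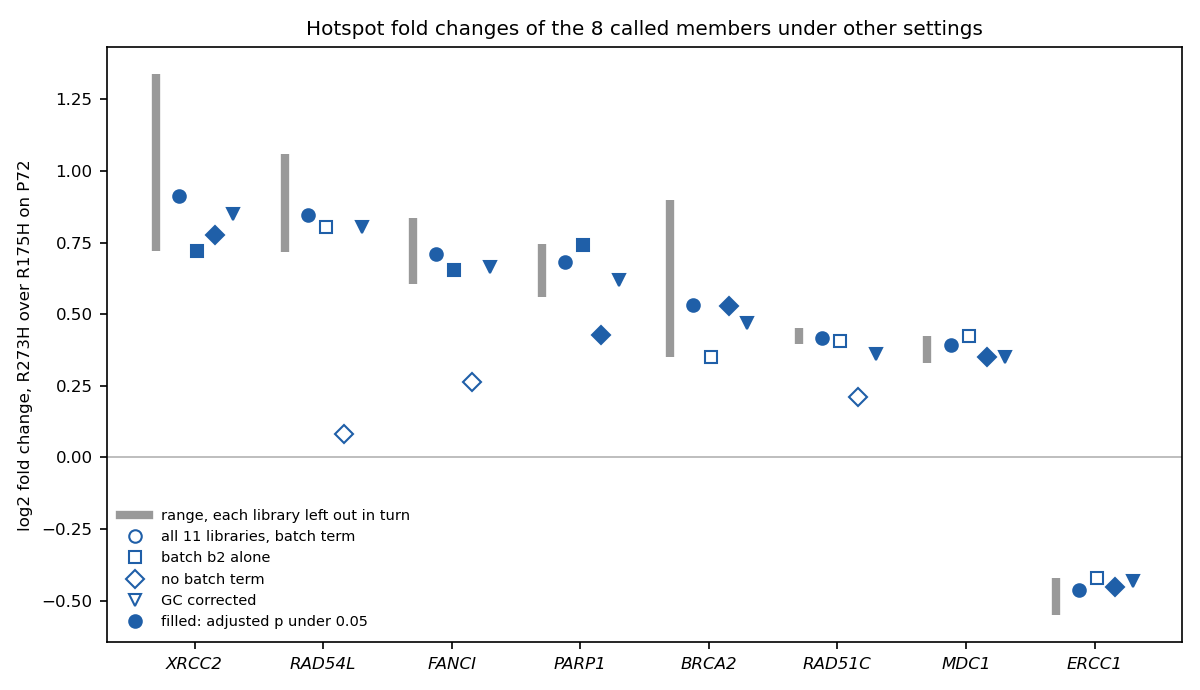
Log2 fold change of R273H over R175H on P72 for the 8 called genes, as fitted from all 11 libraries with a batch term, in batch b2 alone (where R273H P72 is 1 library, so the spread comes from the other groups), without a batch term and with a GC correction; grey bars span the fits that leave out 1 library each, and filled symbols passed an adjusted p of 0.05. PARP1 and XRCC2 are filled in all 4 settings, while RAD54L drops to 0.08 without the batch term.

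The question of the codon 72 form was put first on R175H, with 3 R72 against 3 P72 libraries. No member passed edgeR's test, 0 of 39 beside 1.13% of all genes, and DESeq2 and limma-voom also called 0. At an unadjusted p under 0.05 there were 7 of 39, beside 13.6% of all genes. Their log2 fold changes were -0.56 for ATRIP (SE 0.16), 0.30 for PARP1 (SE 0.09), -0.29 for ERCC1 (SE 0.09), 0.45 for XRCC2 (SE 0.16), 0.32 for BRCA2 (SE 0.12), 0.24 for FANCI (SE 0.12) and 0.20 for ATM (SE 0.10). Adjusted p-values ran upward from 0.0939 for ATRIP.

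PARP1 had 85.4, 106 and 98.1 CPM in R175H R72 replicates 1, 2 and 4, against 79.4, 82.5 and 92 CPM in R175H P72. The groups overlapped through R72 replicate 1, the library of b1. XRCC2 had 13.3, 18.5 and 20.2 CPM and FANCI 27.9, 41.6 and 51.6 CPM in the same R72 libraries, with replicate 1 the lowest for both. BRCA2 had 29.3, 36.2 and 36.5 CPM in R175H R72, all above the R175H P72 libraries, the closest of which had 28.8 CPM. ERCC1 had 79.8, 77.2 and 72.6 CPM in R175H R72, all below the R175H P72 libraries, which began at 87.1 CPM. ATM, the kinase that answers DNA breaks, had 44.7, 46.3 and 50.3 CPM in R175H R72 replicates 1, 2 and 4 and 39.7, 39.5 and 45.9 CPM in R175H P72 replicates 1, 2 and 4. Those groups overlapped.

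In all, 4 of 39 members did not overlap between R72 and P72 on R175H (ATRIP and ERCC1 lower, BRCA2 and PRKDC higher), beside 13% of all genes. PMS2, named for mismatch repair, had 23, 27.2 and 25.6 CPM in R175H R72 and 21.9, 24.2 and 24.5 CPM in R175H P72, with a log2 fold change of 0.21 (SE 0.12) and 11 pseudogene copies named after it that can share reads. Several members had values close to 0 with small errors: MDC1 -0.01 (SE 0.09), MSH6 0.02 (SE 0.09), XRCC5, the Ku80 subunit, 0.01 (SE 0.08), and TP53BP1, which favours end joining at breaks, 0.07 (SE 0.09). Of the 130 other DNA damage genes 1 was called, MPG, lower with R72 (-0.53, SE 0.11, adjusted p = 0.0155), and of the 31 proliferation genes 1 was higher and 1 lower.

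On R273H the single R72 library was set against 4 P72 libraries and is assumed to vary like the other groups. No member was called by edgeR or limma-voom (0 of 39, beside 0% of all genes by edgeR), DESeq2 called 1, PRKDC (beside 2.61% of the genes it gave an adjusted p), and 5 had an unadjusted p under 0.05 (7.75% of all genes). ATRIP had 5.5 CPM in R273H R72 and 10.7 to 12.6 CPM in R273H P72 (log2 -1.13, SE 0.25, adjusted p = 0.149 by edgeR). MDC1 had 50.1 CPM in R273H R72, below the 61.6 to 67 CPM of R273H P72 (log2 -0.39, SE 0.13), and close to the 47.3 to 51.4 CPM of the R175H groups. PARP1 had 105 CPM in R273H R72, within the range of R273H P72, and a batch-adjusted log2 fold change of -0.37 (SE 0.13). The other 2 were PRKDC, the catalytic subunit of DNA-PK (0.39, SE 0.12), and ETAA1, an activator of ATR (0.64, SE 0.28), both given after their values were seen.

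R273H over R175H on R72, with 1 library against 3, called 0 of 39 members by edgeR, DESeq2 and limma-voom, beside 0.0429% of all genes, and 2 had an unadjusted p under 0.05 (4.62% of all genes). These were FANCI (log2 0.39, SE 0.15) and ATRIP (-0.51, SE 0.24). Of the genes called between the hotspots on P72, PARP1 (105 CPM), XRCC2 (19.3), BRCA2 (35.65) and MDC1 (50.1) in R273H R72 lay within the range of R175H R72. In the same library RAD51C (41.8 CPM), RAD54L (15.1) and FANCI (59.6) lay above that range, and ERCC1 (66.2) below it. The R72 effect on R273H minus that on R175H was called by edgeR for 0 of 39, beside 0.0306% of all genes, with 3 at an unadjusted p under 0.05 (10.2% of all genes). Here limma-voom called 0, and DESeq2 called 1, PARP1 (beside 3.21% of the genes it gave an adjusted p). The 3 were PARP1 (-0.67, SE 0.17, adjusted p = 0.17 by edgeR), XRCC2 (-0.81, SE 0.29) and MDC1 (-0.38, SE 0.17). The R72 effects on the 2 mutants were therefore not shown to be unequal for any of the 39 genes by edgeR. These comparisons share libraries with one another.

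Fitted over both mutants, with 4 R72 and 7 P72 libraries, ATRIP was lower with R72 and was the 1 member called (1 of 39, 2.56%, beside 0.214% of all genes in either direction and 0.178% lower). ATRIP (chromosome 3, 48446710 to 48467645) encodes the partner that carries ATR to single-stranded DNA coated with RPA. It had 5.5 CPM in R273H R72 and 7.71, 8.07 and 7.44 CPM in R175H R72 replicates 1, 2 and 4. It had 12.3, 12.6, 11.4 and 10.7 CPM in R273H P72 replicates 1 to 4 and 11.6, 12.1 and 11.1 CPM in R175H P72 replicates 1, 2 and 4. All 4 R72 libraries lay below all 7 P72 libraries, in both batches and on both mutants. The log2 fold change was -0.74 (SE 0.13, adjusted p = 0.0187), 1.67-fold lower with R72. Of the 16324 genes tested, 0.833% kept the R72 and P72 libraries apart, and 2 of the 39 did, ATRIP lower and PRKDC higher.

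ATRIP shares 1515 exonic bases on the same strand with TREX1, a gene of a 3′ exonuclease, and 1 of the 4 ATRIP transcripts listed in the table ends inside TREX1. A tag from that end could have been counted to either gene. TREX1 had 26 counts in R273H R72 and 1 to 10 counts in each of the other 10 libraries. With the counts of ATRIP and TREX1 added together, an alternative chosen after seeing the data, R72 libraries held 7.93 to 8.54 CPM and P72 libraries 11.2 to 12.95 CPM, again without overlap. The summed log2 fold change was -0.57 over both mutants (SE 0.12, adjusted p = 0.0454), -0.54 on R175H (SE 0.16) and -0.61 on R273H (SE 0.23). The difference between the mutants was -0.07 for the sum (SE 0.30) and -0.57 for ATRIP alone (SE 0.31).

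**Figure D4:**
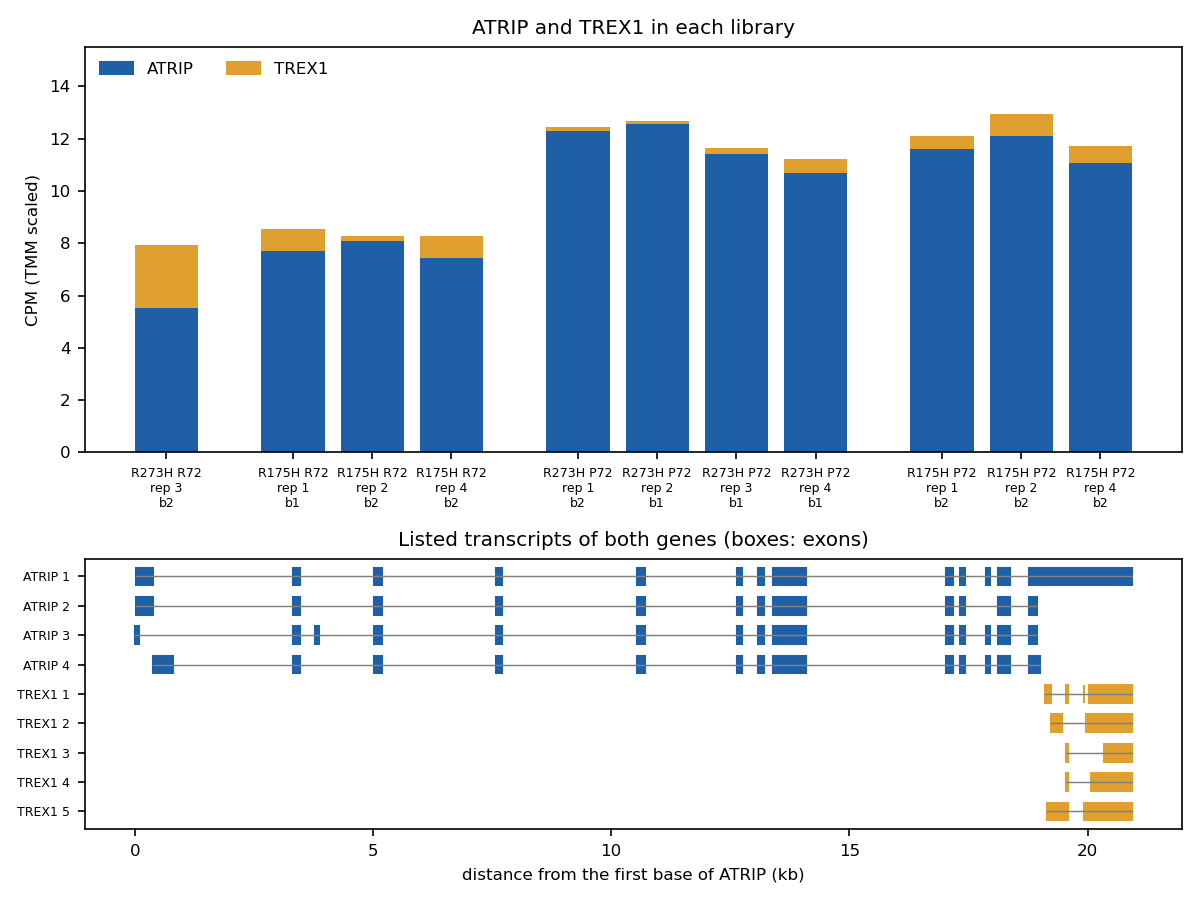
Upper panel, CPM of ATRIP (blue) with TREX1 (yellow) stacked on it in each library, with replicate number and batch under the bar; lower panel, exons of the transcripts listed for both genes, as distance in kb from the first base of ATRIP. The stacked bars of the 4 R72 libraries reach 7.93 to 8.54 CPM and those of the 7 P72 libraries 11.2 to 12.95 CPM, and TREX1 takes a visible part in R273H R72.

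The call of ATRIP over both mutants was sensitive to the fit. Its log2 fold change was -0.56 without the R273H R72 library (adjusted p = 0.0845), -0.66 with a GC correction (adjusted p = 0.0867), -0.74 without a batch term (adjusted p = 0.106) and -0.75 in batch b2 alone (adjusted p = 0.106). It was also not called without R175H P72 replicate 1, R175H P72 replicate 2 or R175H R72 replicate 2, with log2 fold changes of -0.76, -0.74 and -0.81. The fit without the R273H R72 library compares R72 with P72 on R175H alone, so its value belongs to that comparison.

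Of the other members, 5 had an unadjusted p under 0.05 over both mutants, 6 of 39 with ATRIP, beside 10.6% of all genes. PRKDC had 595 CPM in R273H R72 and 515 to 561 CPM in R175H R72, against 445 to 476 CPM in R273H P72 and 466 to 497 CPM in R175H P72. The R72 libraries lay above the P72 libraries, with a log2 fold change of 0.23 (SE 0.07, adjusted p = 0.168 by edgeR), and DESeq2 called it (adjusted p = 0.0238, beside 1.28% of the genes it gave an adjusted p). The others were ATM (0.21, SE 0.07), ERCC1 (-0.20, SE 0.08), ETAA1 (0.38, SE 0.15) and PMS2 (0.22, SE 0.09). Of the 130 other DNA damage genes edgeR and limma-voom called 0 over both mutants, DESeq2 called 1, and 12 had an unadjusted p under 0.05.

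Over the 11 libraries the 39 genes varied little as a set. For the 35 members that averaged 10 CPM or more, the highest library over the lowest gave a median ratio of 1.41, beside 1.51 over 8968 genes of that level. XRCC5 was the steadiest of them at 1.16 and RAD54L the widest at 3.19. The summed level of the 39 was 3026 CPM in R273H R72, 2920 to 3051 CPM in R273H P72, 2929 to 3004 CPM in R175H R72 and 2779 to 2942 CPM in R175H P72. Of the 39 genes, 30 passed edgeR's threshold in none of the 6 comparisons.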

How the data were processed

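The deposited values are estimated counts per gene, whole numbers in the table, 1 column per library. Per the submitters' processing notes, Bowtie2, RSEM 1.2.12 and DESeq2 were used with genome build hg38, and their settings and any use of strand are not given in the sources used here. RNA was made into QuantSeq 3′ libraries and read as single 75 bp reads, per the labels' protocols. Each column was matched to a library by its title. Of 45965 genes, 20641 had no count in any library. No duplicate library was found.

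The filter on low counts was filterByExpr (groups as above, at least 10 counts, at least 15 in total), scaling was by TMM, and genes were tested with edgeR 4.0.16 (R 4.3.3, robust quasi-likelihood) with batch as a term, over all 11 libraries. The Benjamini-Hochberg adjustment covered 16324 genes, with a threshold of 0.05. R72 over both mutants used batch, hotspot and codon 72 form as terms, and the other comparisons used the 4 groups with batch. The procedure was tested on simulated data that held no batch effect, so the batch term itself was not tested. Between hotspots on P72, 52.2% of 1.5-fold and 88.1% of 2-fold changes were called with the right sign. False calls were 10 of 170 there, 19 of 199 for R72 on R175H and 5 of 196 over both mutants.

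The members and gene lists were chosen with earlier results of these data known. Named with values were members called in any comparison, members with an unadjusted p under 0.05 on R175H or between hotspots on P72, a member of each pathway with none, and up to 4 other called DNA damage genes per comparison. Some genes are not reported here. Alternatives were other scalings and filters, DESeq2 1.42.0, limma-voom (limma 3.58.1), no batch term, a replicate block, batch b2 alone, each library left out, and a GC correction (natural spline of 5 degrees of freedom on the last 500 bases of the transcripts). Gene positions and overlaps came from GENCODE (hg38). Promoter windows came from RefSeq (GRCh38.p14).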

Additional observations from a re-analysis of the deposited data

Results flagged for a closer look

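In the 4 R273H P72 libraries, the one group large enough for this check, the value of 1 library stood far from the other 3 for 3 of 39 genes (Dixon's ratio over its 95% critical value). Chance gives about 1 in 20 where libraries vary alike, but here replicate 1 is of b2 and the others are of b1. The share over all genes was not computed. TOPBP1, which activates ATR, had 53.14 CPM in replicate 2 and 43.97 to 45.42 CPM in the others. RAD50 had 61.52 CPM in replicate 1, the library of batch b2, and 71.63 to 72.26 CPM in the 3 libraries of b1. XRCC1, the scaffold of single-strand break repair, had 9.301 CPM in replicate 4 and 14.31 to 15.01 CPM in the others. The libraries numbered 4 of R175H R72 and R175H P72 had 8.16 and 8.16 CPM of XRCC1 as well, where replicates 1 and 2 of those groups had 13.97 to 15.19 CPM.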

How the results depend on the processing

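Between the hotspot mutants on P72, 8 members were called, 5 without a batch term and 6 to 9 with each library left out. Over all genes, 2376 were called with the batch term and 2395 without it, so the count of members fell while that of all genes did not. On R175H, 0 were called under every alternative run. For R72 on R273H, which rests on 1 R72 library, ATRIP passed the threshold only without a filter and PRKDC only with DESeq2. For the difference of the R72 effects, which rests on the same library, PARP1 passed only in those fits. In both comparisons many more genes overall also passed without a filter and with DESeq2 than in the main fit. Over both mutants, 1 became 2 with DESeq2, 0 without a batch term, 0 with the replicate block, 0 with the GC correction, 0 in batch b2 alone and 0 to 1 with each library left out. XRCC6 changed sign between the hotspots without a batch term (log2 fold change 0.039). The causes were not tested.

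Over all genes, 185 calls on R175H became 56 with the GC correction, 6 without a batch term, 81 with the replicate block, 333 with DESeq2, 24 without R175H R72 replicate 2, 52 without R175H P72 replicate 2 and 108 without R273H P72 replicate 3. The 2376 hotspot calls became 866 in batch b2 alone, 1253 without R273H P72 replicate 1 and 1214 without R175H R72 replicate 1, and the 35 calls over both mutants became 10, 2 and 140 with the GC correction, no batch term and DESeq2. Leaving out 1 library other than R273H R72 moved those 35 calls to between 2 (without R175H R72 replicate 2) and 87 (without R175H R72 replicate 4). There were 3 without R175H P72 replicate 2, 9 without R175H P72 replicate 1, and 17, 18 and 22 without R273H P72 replicates 3, 4 and 1. Without the R273H R72 library the fit compares R72 with P72 on R175H alone, and 196 genes were called. Deviations of libraries that share a number correlated at -0.253 to 0.146. The 3 of 9 pairs over 0.1 were those of the libraries numbered 4 (0.124 to 0.146), while the other 6 pairs stayed at or under 0.054. Pairs of libraries with unlike numbers correlated at -0.161 to 0.313, with 4 of 24 over 0.1. The highest of these, 0.313, came from libraries that share a batch. The values of the libraries numbered 4 lay within that range, and the numbers were not taken as pairs. Whether the libraries numbered 4 share an effect was not tested. Under the replicate block ATRIP over both mutants was -0.69 (adjusted p = 0.0578). Without the R273H R72 library 3 comparisons had no value. Low counts limited the precision for HUS1, LIG4 and TREX1.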
